A study of Rattus norvegicus with 6 samples.

Results

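The complement genes described here are the 9 components and regulators C1qa, C1qb, C1s, C2, C3, Cfd, Cfi, Serping1 and Cd59, taken by their symbols from the probe annotation of a whole rat genome array. They were represented by 12 of 41012 probes and by 9 of 36410 targets, since C1qa, C1s and Serping1 had 2 probes each. Spinal cord RNA of adult Lewis rats was hybridised to 6 arrays, 1 per group, from sections that had been formaldehyde-fixed and embedded in paraffin. ENMO rats were injected with T cells specific for myelin basic protein (day 0) and 4 days later with NMO-IgG, the antibody of neuromyelitis optica. EAEcoI rats received these T cells and human control IgG, and EAEcoP rats the T cells and PBS. Each antibody was also given alone (NMO-IgG only, control IgG only), and rats of the healthy control were untreated. EAE below means EAEcoI and EAEcoP, all T means ENMO and EAE, and all non-T the arrays without T cells. All treated rats were killed 24 hours after the antibody or PBS. Each array carried amplified RNA pooled from 5 rats, or from 3 for the healthy control, so that no value has an error between animals.

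Complement is a set of plasma proteins and membrane receptors that mark targets for removal and can punch pores into cell membranes. The classical pathway starts when C1q binds antibody on a surface. Of its proteases C1r and C1s, C1s then cuts C4 and C2. The alternative pathway amplifies the deposition of C3 with the help of factor B and factor D, and soluble and membrane-bound inhibitors hold both pathways back on host cells. In neuromyelitis optica, complement activated by antibodies against the astrocyte water channel aquaporin 4 is a recognised route of astrocyte loss.

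Spinal cord transcripts such as Mobp, a myelin protein, were well above background on all 6 arrays (NSI 238 to 488). NSI stands for normalized signal intensity, the signal of a probe after quantile normalization of the 6 arrays, on a linear scale with no unit. Among the astrocyte markers, Aqp4 was above background on 1 of 6 arrays and Gfap on the 3 arrays of T cell recipients. Aldoc (NSI 99.1 to 148) and Gja1 were above background on all 6 arrays and Aldh1l1 on 5, and Glul reached 499 in EAEcoI. The skeletal muscle genes Mb and Tnni2 were above background on every array (NSI 740 to 1807). Acta1 and Ckm, also muscle genes, rose above background only in ENMO, EAEcoI and EAEcoP, and Tnnt3 in no group. The share of spots well above background ran from 35.43 to 60.22%. ENMO, EAEcoP and control IgG only lay on slide 1 and the other groups on slide 2. The pooled SD between 10 spots of a probe was 0.544 (log2, 263 probes), and a difference between arrays thus had an SD of 0.769, or 1.70-fold. For the 156 of these probes whose spots were all above background, a filter added after the first value was seen, it was 0.523, or 1.44-fold. These SDs cover the array only.

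The probes on which the results below turn are given here by their last 30 of 60 bases, as listed in the array design and read 5′ to 3′. Capitals mark the hexamer AATAAA, the usual signal for polyadenylation near the end of a transcript.
Cfd: ccggagaccgtgactcacAATAAAtgcagc
C1qb: tgtagatgttacagaatgggtaAATAAAct
Serping1, brighter probe: agcctcctcacgcaggtccttcttggggct
Serping1, dimmer probe: ttttatggttcaagcttaacagagtctaca
C1qa, brighter probe: aagtgggacctttgtctgtctatcgtgtcc
C1qa, dimmer probe: gaagccgacagcatcttcagtggattcctc
The design places the Cfd probe at chr7:11325547-11325604 and the C1qb probe at chr5:155647536-155647595, both on the minus strand of a rat genome whose build the files do not name. The Serping1 probes lie at chr3:67975119-67976458 and chr3:67968828-67968887, and the C1qa probes at chr5:155662767-155662826 and chr5:155662578-155662637, also on the minus strand. Exon and UTR annotations of that build were not used here. The hexamer stands in 2 of the 12 probes, those of Cfd and C1qb, and in 4.26% of all probes. Its complement on the other strand, TTTATT, is in 3.38% of all probes and in 0 of the 12, and 0.219% of all probes hold both.

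Of the 9 genes, 6 were well above background on all 6 arrays with their brighter probe (C1qa, C1s, C2, Cfd, Cfi, Serping1), C1qb on the 5 arrays where it had a usable spot, C3 on 3 and Cd59 on 0. The brighter probe stood for a gene, and a comparison is the ratio of the mean NSI of its groups. Where a group had no array above background, the higher of its own signal and the lowest signal of any detected probe was used, as a mean of log2 values, and the ratio is a bound. In tissue RNA, fewer cells of a type and less RNA per cell cannot be told apart.

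**Figure D1:**
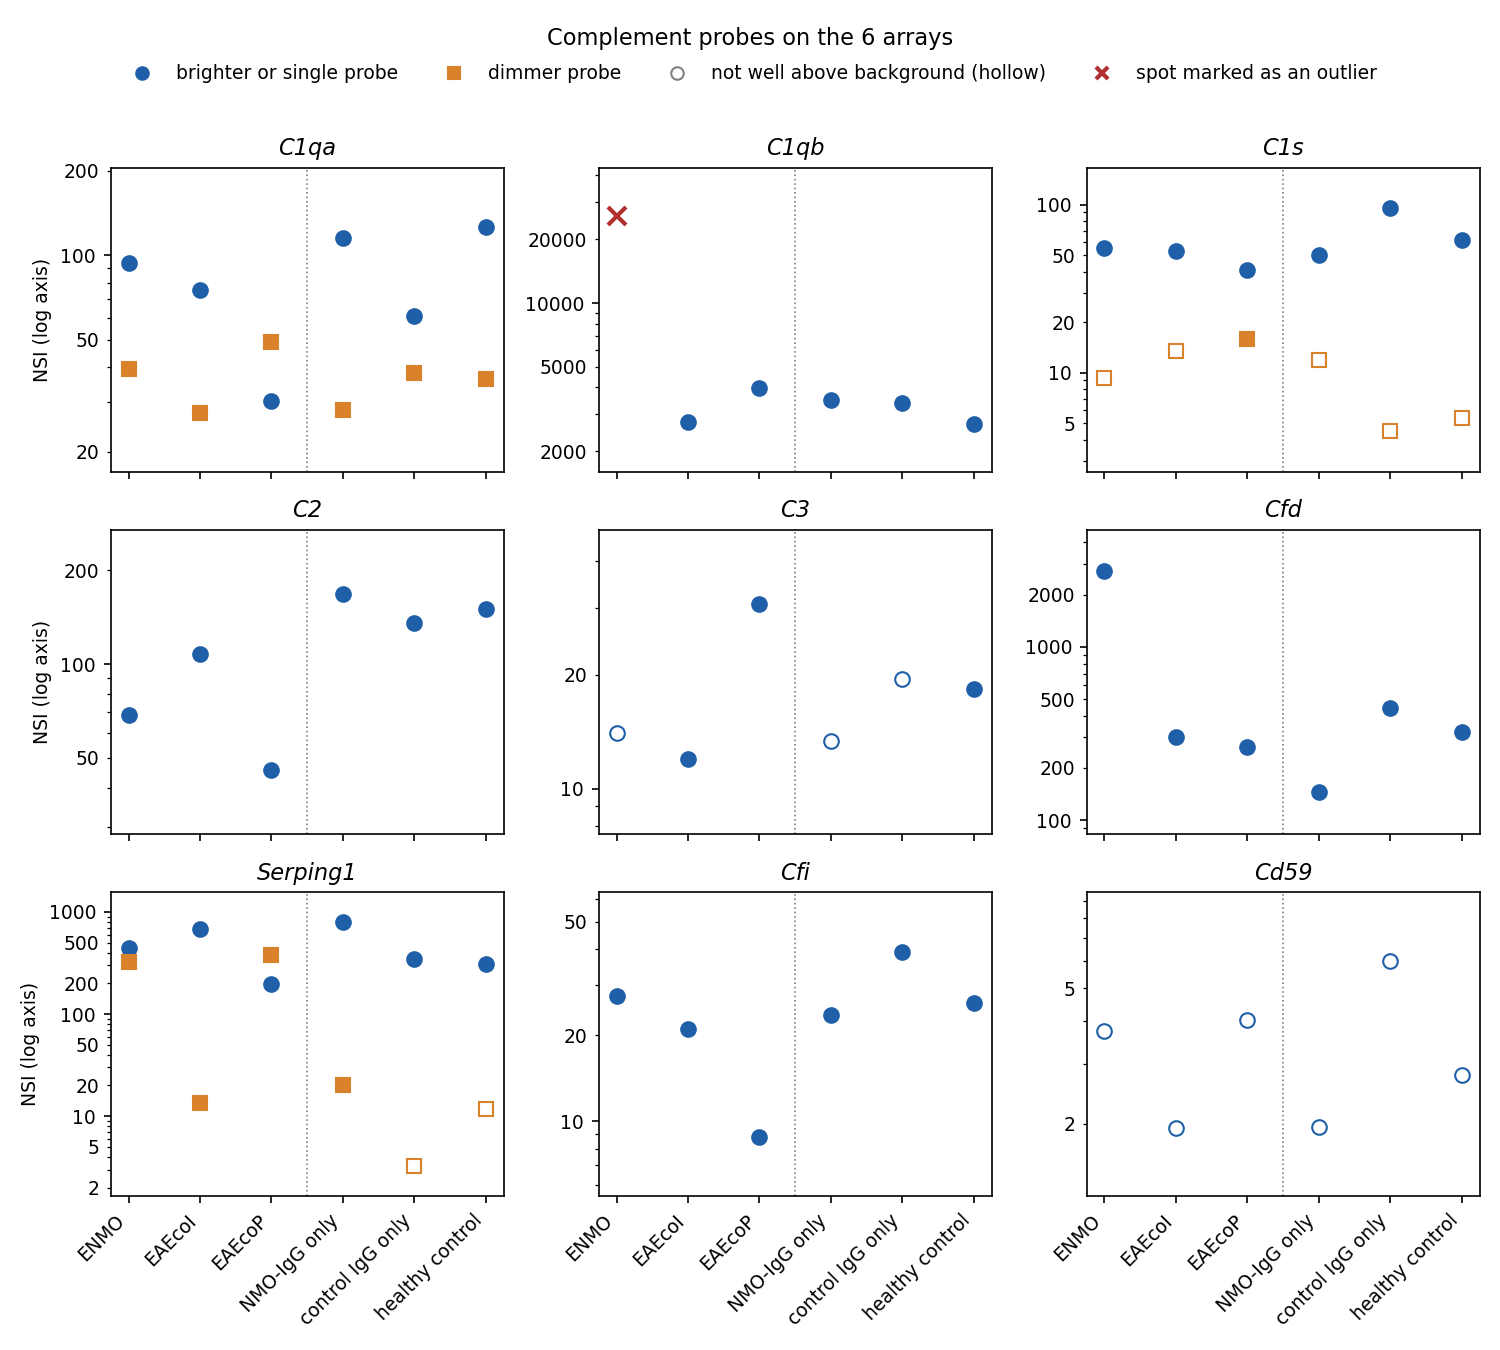
NSI (log axis, a different range in each panel) of the 12 probes of the 9 complement genes on the 6 arrays, with T cell recipients left of the dotted line. Each point is 1 array. Cfd was 2721 in ENMO and at most 441 elsewhere, and the probes of C1qa and Serping1 gave different orders of the arrays.

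C1q recognises antibody bound to a target and is made of 3 chains, of which C1qa and C1qb encode the A and B chain. The brighter C1qa probe had an NSI of 94.0 in ENMO against 75 in EAEcoI and 30.3 in EAEcoP, and without T cells 115 after NMO-IgG, 61.1 after control IgG and 127 in the healthy control. ENMO was above both EAE arrays, 1.78-fold above their mean, and within the range of the arrays without T cells. T cell recipients and rats without T cells overlapped, with a ratio of means of 0.659. The dimmer C1qa probe, whose position starts 189 bases nearer the 3′ end, had 39.5, 27.5, 49.2, 28.1, 38.1 and 36.3 in the same order. On this probe the ENMO value lay between the EAE values (ratio 1.03), and the ratio of T cell recipients to the others was 1.13. The probes thus put EAEcoP at opposite ends of the 6 arrays.

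The C1qb probe had values of 2741 in EAEcoI and 3996 in EAEcoP, and without T cells 3489 after NMO-IgG, 3395 after control IgG and 2690 in the healthy control. These 5 arrays lay within 1.49-fold of each other, and EAE over all non-T was 1.06. The ENMO spot was marked as non-uniform by the scanner software and was left out, so there is no ENMO ratio. The pixels of this spot had a mean of 13614, a median of 17036 and an SD of 81.6% of the mean, against 14.5 to 26.4% on the other arrays. With the spot kept, ENMO had an NSI of 25829 and was 7.49-fold above EAE. The C chain gene C1qc, which was not among the 9, had 53.5 in ENMO, with 99.9 and 85.0 in EAEcoI and EAEcoP, a ratio of 0.578. The chains therefore gave no common direction for ENMO against EAE on these probes.

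C1s, the C1 protease that cuts C4 and C2, had an NSI of 55.3 in ENMO against 53.3 in EAEcoI and 40.9 in EAEcoP, and without T cells 49.8 after NMO-IgG, 94.9 after control IgG and 61.6 in the healthy control. The ratio of ENMO to EAE was 1.17. It was 1.04 against EAEcoI and 1.35 against EAEcoP, each within the 1.70-fold SD of a difference between arrays. The ratio of all T to all non-T was 0.725, and as a ratio of means over several arrays it was not set against that SD of single spots. The highest array was control IgG only, without T cells. The other C1s probe was above background in EAEcoP alone, at 15.8.

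C2, which supplies the protease part of the classical C3 convertase, had an NSI of 68.5 in ENMO against 108 in EAEcoI and 45.5 in EAEcoP, and without T cells 169 after NMO-IgG, 135 after control IgG and 150 in the healthy control. All 3 arrays of T cell recipients were below all 3 without T cells, and the ratio of means was 0.489, or 2.05-fold lower. After quantile normalization, C2 was the only one of the 9 genes whose brighter probe did not overlap between T cell recipients and the others. Without normalization between arrays C2 overlapped too, with a signal of 157 in EAEcoI against 137 in NMO-IgG only and 85.3 in control IgG only. Over all 24803 targets, 7.02% had every T array below every non-T array and 11.0% the reverse. Within slide 1 the ratio was 0.422 and within slide 2 it was 0.677, and both must be below 1 given the lack of overlap. In limma the log2 difference was −1.12 (SE 0.53, Benjamini-Hochberg adjusted p = 0.457), which did not pass the threshold of 0.05. On simulated data this fit called 0 of 50 changes of log2 size 1. ENMO lay between the EAE arrays, with a ratio of 0.893. The ratio of all T to all non-T came to 0.583 without the EAEcoP array, 0.518 without NMO-IgG only and 0.507 without ENMO, each short of 2-fold.

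C3, on which all pathways converge, was near background on this probe. Its NSI was 12 in EAEcoI, 30.6 in EAEcoP and 18.4 in the healthy control. In ENMO (14.0) and the rats given antibody alone (13.4 with NMO-IgG, 19.5 with control IgG) it was not well above background. The mean of EAE was at least 1.36-fold above ENMO, which rests on EAEcoP, since EAEcoI lay below the ENMO signal and gave no ratio. The ratio of all T to all non-T was 1.1.

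Cfd, which encodes factor D, the protease that cuts factor B to form the alternative pathway C3 convertase, stood apart in ENMO. Its NSI was 2721 in ENMO against 302 in EAEcoI and 263 in EAEcoP, and without T cells 144 after NMO-IgG, 441 after control IgG and 321 in the healthy control. The ENMO array was above every other array, and the EAE arrays lay within the range of those without T cells. ENMO over EAE was 9.63, and 46 of the 21189 targets with a ratio were higher. The ratio was 9.0 against EAEcoI and 10.3 against EAEcoP, which shares slide 1 with ENMO, and each is beyond the 1.70-fold SD of a difference between arrays. In limma the log2 difference of ENMO against EAE was 3.27 (SE 0.87, unadjusted p = 0.00586, adjusted p = 0.687), which did not pass the threshold. The ratio of all T to all non-T, 3.62, rests on the ENMO array, since leaving it out gave 0.935.

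Among the 7 genes with a ratio of ENMO to EAE, Cfd alone was over 2-fold higher and 0 were over 2-fold lower. Over all targets, 14.6% were over 2-fold higher and 17.9% over 2-fold lower. The median log2 ratio of the 7 genes was 0.23, beside −0.06 for all targets. For all T over all non-T, Cfd was over 2-fold higher and C2 over 2-fold lower among 8 genes with a ratio, beside 14.9 and 10.6% of 22292 targets. The median log2 ratio here was −0.29 for the 8 genes and −0.01 for all targets. A single gene of 7 or 8 is near these background shares, and the counts say nothing particular about the 9 genes.

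Marker lists of cell types were read beside Cfd, as a description. The microglia and macrophage list, of which 10 of 11 genes were above background on at least 1 array, had a summed NSI of 15707 in ENMO and 2565 to 5609 on the other arrays. Most of this was Tyrobp, a signalling adaptor of myeloid cells, with 14041 in ENMO and 1247 to 4633 elsewhere, while Mrc1 was not above background on any array. Without Tyrobp the sum was 1666 in ENMO and 851 to 1533 on the other arrays. Of the 8 genes of the list with a ratio of ENMO to EAE, 3 were over 2-fold higher and 0 over 2-fold lower, and Trem2 (0.622), Cd163 (0.809) and Aif1 (a bound of 0.699) were below 1. The T cell list, 4 of whose 6 genes on the array were above background on at least 1 array, had a summed NSI of 2502 in ENMO and 723 to 1043 elsewhere. Cd3d, a chain of the T cell receptor complex, made up most of it, with 2348 in ENMO and at most 924 elsewhere. Without Cd3d the sum was 154 in ENMO and 60.4 to 175 on the other arrays. Cd3e and Cd2 were above background on 0 arrays. Of the fibroblast and meninges list, with 6 of 7 genes above background on at least 1 array, 3 of 4 genes with a ratio were over 2-fold higher in ENMO than in EAE, namely Col1a2, Col3a1 and Igf2. Its summed NSI was 2542 in ENMO, within the 1621 to 2685 of the other arrays, and Pdgfra was not above background on any array. The part of the genes of these 3 lists in the Cfd result was not tested. Cfd is also known as adipsin, a product of fat cells. The fat cell genes Adipoq and Lpl were above background on 0 of 6 arrays, and the fat cell list, 6 of whose 8 genes were above background on at least 1 array, had a summed NSI of 166 in ENMO, within the 75.7 to 761 of the other arrays. Retn carried this sum in EAE, with 651 in EAEcoI and 448 in EAEcoP against 83.4 in ENMO, and without Retn the list had 82.5 in ENMO and 55.5 to 110 elsewhere. Lep was above background on 6 of 6 arrays, with a ratio of ENMO to EAE of 0.801, and Plin1 (1.27) and Pparg (2.09) on 5. The part of fat cell genes in the Cfd result was not tested.

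The hexamer in the Cfd probe was noticed after the values were seen. In ENMO over EAEcoI, 49.5% of the 810 probes with AATAAA were over 2-fold higher, beside 14.3% of the 21335 probes without it, and their median ratios were 1.97 and 0.961. In ENMO over EAE, where Cfd had the ratio of 9.63, the shares over 2-fold higher were 24.5 and 13.9%. In ENMO over NMO-IgG only, with 18.8 for Cfd, they were 25.8 and 15.5%. In ENMO over EAEcoP, with 10.3 for Cfd, they were 27.9 and 28.0%. As a class, the probes with AATAAA were low in EAEcoI. In EAEcoI over EAEcoP, with 1.15 for Cfd, 48.6% of them were over 2-fold lower, beside 24.5% of the probes without it. In EAEcoI over control IgG only, with 0.685 for Cfd, the shares over 2-fold lower were 45.7 and 15.2%. The C1qb probe, with the marked ENMO spot, holds the hexamer as well. What the hexamer contributes to the Cfd value was not tested.

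Serping1 encodes the C1 inhibitor, which blocks C1r and C1s. Its brighter probe had an NSI of 448 in ENMO against 684 in EAEcoI and 199 in EAEcoP, and without T cells 793 after NMO-IgG, 347 after control IgG and 308 in the healthy control. The groups overlapped, with 1.02 as the ratio of ENMO to EAE and 0.920 as that of all T to all non-T. The dimmer probe, which starts 6291 bases nearer the 3′ end, had 321 in ENMO, 13.4 in EAEcoI, 382 in EAEcoP and 20.4 in NMO-IgG only. In the control IgG only (3.25) and healthy control (11.8) groups it was not well above background. On this probe ENMO and EAEcoP stood far above the other 4 arrays, and EAEcoI was below NMO-IgG only. The ratio of all T to all non-T was 20.3, beside 0.920 for the brighter probe. Within slide 1 it was at least 59.6, and within slide 2, which holds EAEcoI, it was 0.832. The ratio of ENMO to EAE was 1.62 for the mean, 24.0 against EAEcoI and 0.841 against EAEcoP.

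Cfi encodes factor I, the protease that inactivates C3b and C4b. Its NSI was 27.5 in ENMO against 21.0 in EAEcoI and 8.83 in EAEcoP, and without T cells 23.6 after NMO-IgG, 39.3 after control IgG and 26.0 in the healthy control. ENMO was 1.85-fold above EAE, with 1.31 against EAEcoI and 3.11 against EAEcoP, and the T cell recipients overlapped the others (ratio 0.645). EAEcoP was the lowest of the 6 arrays. Cd59, which blocks the membrane attack complex on host cells, was not well above background on any array (NSI 1.94 to 6.01), so no ratio is given. Another probe described as Cd59, looked at after these values were seen, was above background in NMO-IgG only (24.6) and the healthy control (14.6) alone.

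The T cell effect was next taken within each antibody treatment. For Cfd, ENMO over NMO-IgG only was 18.8, while EAEcoI over control IgG only was 0.685 and EAEcoP over the healthy control 0.819. In the control IgG pair, probes with AATAAA had a median ratio of 0.559, beside 1.18 for probes without it. The part this plays for Cfd was not tested. With NMO-IgG, 1 of 6 genes with a ratio was over 2-fold higher (Cfd) and 1 was over 2-fold lower (C2, ratio 0.406), beside 15.4 and 14.2% of 18300 targets. With control IgG, 0 of 7 genes passed 2-fold in either direction, beside 38.2% of 19481 targets, and the highest was Serping1 at 1.97. Without antibody, 3 of 8 genes were over 2-fold lower in EAEcoP, namely C1qa (0.240), C2 (0.303) and Cfi (0.340), and 0 were higher. Here 30.9% of 22282 targets were over 2-fold lower and 28.8% higher. C2 was below 1 in all 3 pairs, with 0.798 under control IgG. This had to follow from its lack of overlap between T cell recipients and the others, so the pairs add no further evidence. Without normalization between arrays the C2 signal was higher in EAEcoI (157) than in control IgG only (85.3). The other genes with 3 ratios changed direction between pairs.

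**Figure D2:**
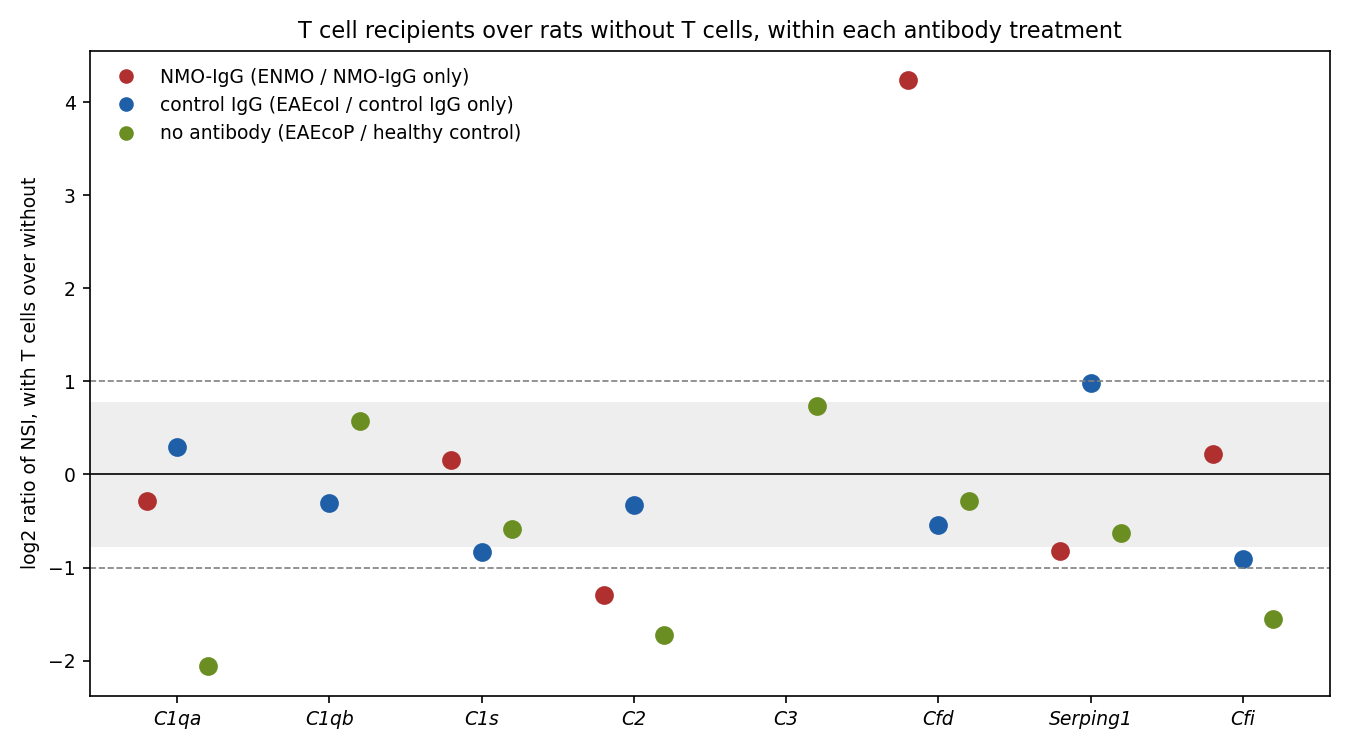
Log2 ratio of NSI of T cell recipients over rats without T cells for the brighter probe of each gene, within NMO-IgG, control IgG and no antibody; 1 point is 1 pair of arrays, the grey band is ±0.769 (SD of a difference between spots on 2 arrays) and dashed lines mark 2-fold. C2 lies below 0 in all 3 pairs, as it must given its lack of overlap in NSI, and Cfd is far above 0 in the NMO-IgG pair alone.

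NMO-IgG was compared with control IgG in rats with and without T cells. In T cell recipients Cfd was the only one of 6 genes past 2-fold (9.0), beside 15.7% of 20443 targets higher and 15.2% lower. Without T cells, Cfd was lower with NMO-IgG than with control IgG, at a ratio of 0.328, and Serping1 was higher, at 2.29. These were 1 of 7 genes in each direction, beside 17.0% of 16615 targets higher and 14.1% lower. The Serping1 ratio with T cells was 0.655 on the brighter probe. Its dimmer probe gave 24.0 with T cells and at least 3.46 without, and the mean over both probes 3.97 and 3.78, the same direction both times. The Cfd ratios thus pointed in opposite directions, as did those of 8.89% of 16054 targets past 2-fold both times, and with 1 array per group the difference between them was not tested. Over both backgrounds limma gave a log2 difference of 0.78 for Cfd (SE 1.15, adjusted p = 1.0). Probes with AATAAA also leaned to lower values in this comparison without T cells, with 28.6% of them over 2-fold lower beside 13.7% of the probes without it, and the part this plays was not tested. The normexp setting starts from the mean pixel signal, without the spatial correction of the scanner software. It also adds a constant to every signal, which draws ratios toward 1. This setting took the Cfd ratio without T cells to 0.663, short of 2-fold, and the part of each step was not tested. The Cfd spot had a processed signal of 117 in NMO-IgG only and 296 in control IgG only, with pixel means of 149 and 201.

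**Figure D3:**
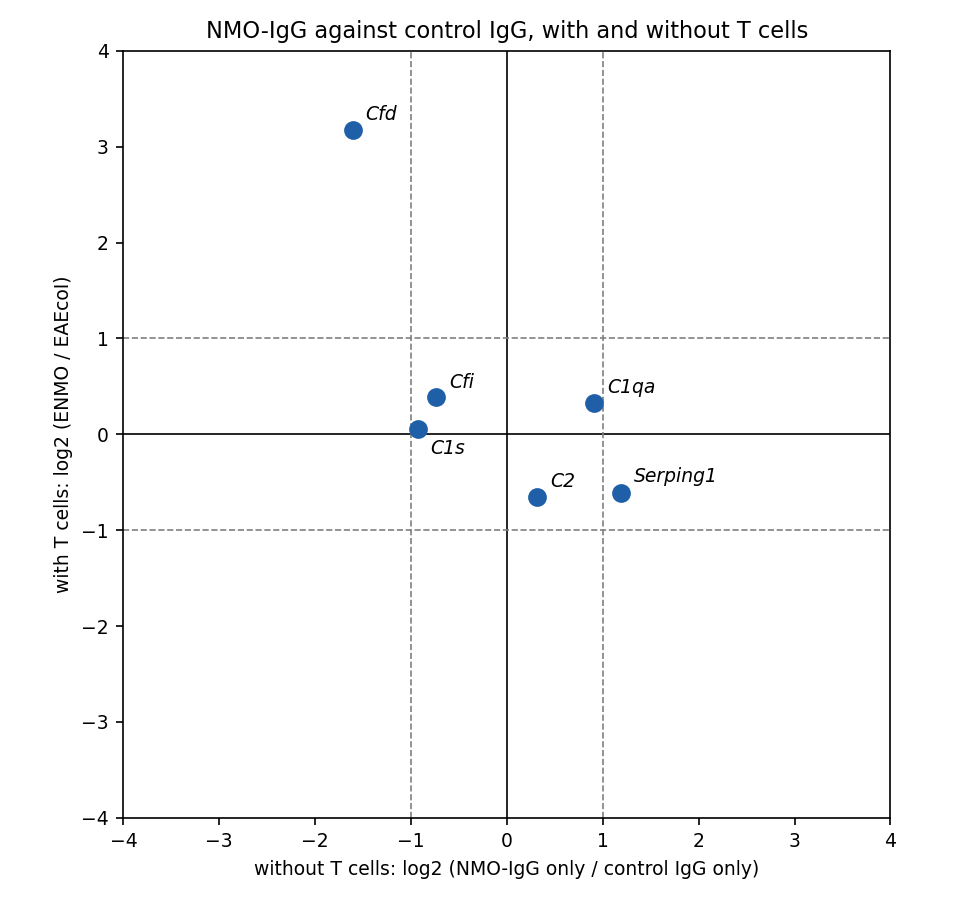
Log2 ratio of NSI of NMO-IgG over control IgG without T cells (x axis) and with T cells (y axis) for the 6 genes with both ratios, brighter probe; 1 point is 1 gene and dashed lines mark 2-fold. Cfd lies at 0.328-fold without and 9.0-fold with T cells.

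The antibodies given alone were also set against the healthy control. With control IgG, 1 of 7 genes was over 2-fold lower, C1qa at 0.482, and 0 were higher, beside 16.3 and 12.9% of 16566 targets. With NMO-IgG, Serping1 was over 2-fold higher at 2.58 and Cfd over 2-fold lower at 0.449, beside 13.7 and 11.7% of 17230 targets. The dimmer C1qa probe gave 1.05 for control IgG, and on the dimmer Serping1 probe NMO-IgG only was at least 1.73-fold above the healthy control.

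The 2 EAE arrays, which differ in whether control IgG or PBS was given, differed over 2-fold for 5 of 8 genes with a ratio. EAEcoI was over 2-fold above EAEcoP for 4, Serping1 (3.44), C1qa (2.47), Cfi (2.37) and C2 (2.37), and over 2-fold below it for C3 (0.390), beside 26.4 and 24.6% of 24112 targets. ENMO was likewise over 2-fold above EAEcoP for 4 of 7 genes, Cfd, Cfi (3.11), C1qa (3.10) and Serping1 (2.25), and below it for C3 (at least 2.18-fold), beside 29.0 and 25.2% of 21737 targets. The dimmer C1qa probe gave 0.558 for EAEcoI over EAEcoP and 0.803 for ENMO over EAEcoP, and the dimmer Serping1 probe 0.035 and 0.841. Both comparisons share the EAEcoP array, which had the highest share of spots above background. Its low values for Cfi and the brighter probes of C1qa and Serping1 stand in both. The part of that array's signal in them was not tested.

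Across the wider pathway, 45 complement genes had been listed by role, 42 had a probe under their symbol, and 30 were above background on at least 1 array. For ENMO over EAE, 2 of 27 genes with a ratio were over 2-fold higher, Cfd and C9, and 2 were over 2-fold lower, C3ar1 and C4bpb, beside 14.6% higher and 17.9% lower of the 21189 targets. The median log2 ratio of the 27 was 0.01, beside −0.06 for all targets. C9, which forms the pore of the membrane attack complex, had 64.5 in ENMO, 21.4 in EAEcoI and 17.6 in EAEcoP (ratio 3.31), but 50.8 to 76.2 without T cells, so that the EAE arrays were the low ones. C3ar1, the receptor of the C3a fragment, had 138 in ENMO, 781 in EAEcoI and 321 in EAEcoP (ratio 0.251), and from 55.7 to 2214 without T cells, a range that took in all 3 arrays of T cell recipients. C4bpb, a chain of the C4b-binding protein, had 53.4, 103 and 160 (ratio 0.407).

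For all T over all non-T, 4 of 29 complement genes with a ratio were over 2-fold higher, beside 14.9% of the 22292 targets. Besides Cfd these were Cfb (at least 3.36), Cr1l (3.06) and Cd46 (2.09). Cfb, the substrate of factor D, was above background in EAEcoI (6.93) and EAEcoP (75.4) only, and was 11.5 in ENMO, not well above background. Cr1l, the rodent membrane inhibitor Crry, had 49.2, 60.0 and 107 in ENMO, EAEcoI and EAEcoP and 16.0 to 28.6 without T cells, with no overlap, as 11.0% of all targets had in this direction. Cd46, another membrane cofactor, had 123, 41.4 and 320 against 57.0 to 99.6, and overlapped. Lower over 2-fold were 3 genes, C2, C8g (0.485) and the C5a receptor C5ar2 (0.418), whose healthy control array had 340 and the other arrays 30.9 to 101, beside 10.6% of targets. The median log2 ratio of the 29 was 0.04, beside −0.01 for all targets.

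**Figure D4:**
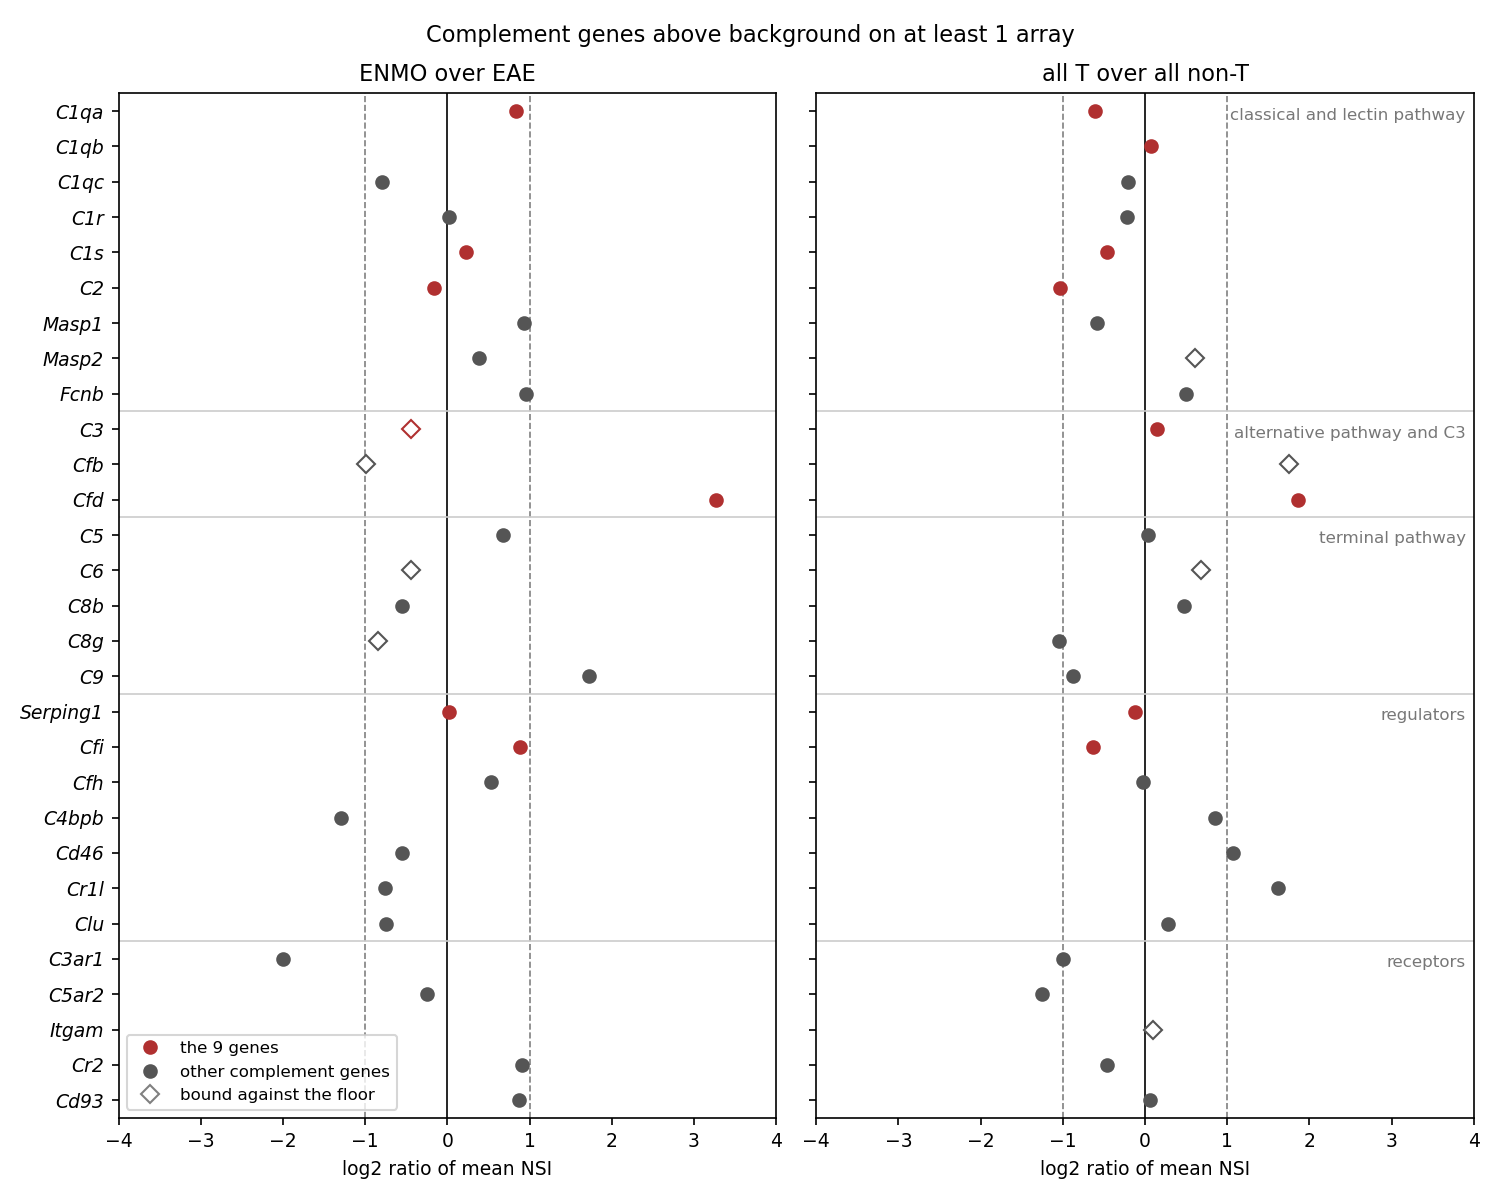
Log2 ratio of mean NSI for the complement genes above background on at least 1 array and with a ratio, ordered by role, with ENMO over EAE on the left and all T over all non-T on the right; dashed lines mark 2-fold and hollow diamonds are bounds. Cfd has the highest measured ratio in both panels, 9.63 and 3.62.

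None of the 9 genes passed limma's threshold in any of the 3 comparisons fitted over all targets, in which 0 targets passed at all. At an unadjusted p under 0.05 stood 11.3% of 24988 targets for all T against all non-T, 5.75% of 24959 for ENMO against EAE and 1.34% of 24979 for NMO-IgG against control IgG, and of the 9 genes Cfd in the second comparison only. The fits of ENMO against EAE and of NMO-IgG against control IgG made no call on simulated data with known changes either, so that their lack of calls says nothing about the 9 genes.

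Profiles over the 6 arrays were compared with those of 5983 named targets above background on all arrays, by Pearson's r of log2 NSI, as a description. The closest to Cfd was Irf5, an interferon regulatory factor, with r = 0.991, at 1502 in ENMO against 225 in EAEcoI and 259 in EAEcoP, and without T cells 110 after NMO-IgG, 324 after control IgG and 254 in the healthy control. The Irf5 probe also holds AATAAA. Next came Ascc2 (0.987) and Ager, the receptor for advanced glycation end products (0.983), neither of which has the hexamer, and both with their highest value in ENMO. Fahd2a was closest to C1qa (0.996), Bag5 to C1s (0.980), Pnlip to Cfi (0.995) and Fbln1 to Serping1 (0.984). All of these values share the same 6 arrays.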

How the data were processed

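The authors fixed, sectioned and pooled the spinal cords, amplified the RNA once and hybridised it to 1-colour Agilent arrays. The deposited intensity values come from Agilent Feature Extraction 10.1.1.1, per the file headers corrected for background and spatial trend and not normalized between arrays. A second deposited table holds 1 intensity per target. Spots marked as outliers were left out, replicate spots were averaged as log2 values, and the arrays were quantile-normalized over 41012 probes (limma 3.58.1, R 4.3.3). A target was taken from its brightest probe over the 6 arrays. The threshold was a 2-fold ratio of mean NSI, with no p for single contrasts. limma was fitted to targets that 1 or more arrays measured above background, with a threshold of 0.05 after Benjamini-Hochberg adjustment, and was checked on simulated data. The lone ENMO array was there assumed to vary like the other groups. The number of arrays limits the precision. Groups came from the sample labels, and pool sizes and times from the study's methods. Cd59 is named as in the files, and the RefSeq table gives its transcript as Cd59b. All 9 genes were named by rule, and other complement genes where past 2-fold. The 9 genes and all lists were chosen with earlier results of these data known. Alternatives covered scaling, background correction, marked spots, probe choice, averaging, local trend, thresholds, single EAE arrays, left-out arrays, filters and blocks. Those for the antibody effect and the dimmer probe were chosen after seeing the data.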

Additional observations from a re-analysis of the deposited data

Results flagged for a closer look

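NMO-IgG over control IgG gave opposite ratios for Cfd, 9.0 with T cells and 0.328 without. With 1 array per group this difference was not tested.

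The C1qb spot of the ENMO array lies outside the comparisons because the scanner software marked it as an outlier. Kept, it had an NSI of 25829, above the 2690 to 3489 of the arrays without T cells. Its pixel SD was 81.6% of its mean, and the part this plays was not tested.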

How the results depend on the processing

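The labels give no replicate numbers, so samples were not paired by number. With antibody as a block limma called 0 of 24979 targets for all T against all non-T (lowest adjusted p = 0.088), and with slide as a block 0 of 24988. For ENMO over EAE, 1 of the 9 genes was past 2-fold. The count was 2 without normalization between arrays (Cfd and C3), with marked spots kept (Cfd and C1qb), with the mean over probes (Cfd and Serping1) and with the mean of log2 values (Cfd and Cfi), 3 in the deposited table with 1 value per target, 5 with EAEcoP alone as EAE and 3 at a 1.5-fold threshold. Cfd was past 2-fold in all of these, from 4.54 (normexp) to 11.2 (75th percentile). For all T over all non-T, 2 genes were past 2-fold. Without normalization between arrays C3 (2.29) took the place of C2 (0.774). The count was 3 with marked spots kept (C1qb at 3.48 added), with the mean over probes (Serping1 at 3.40 added) and with the dimmer probe (Serping1 added), 1 with normexp, 4 in the deposited table, 4 at 1.5-fold, 1 at 3-fold, and 0 to 2 when 1 array was left out, with 0 without ENMO and 1 without EAEcoP or without NMO-IgG only. The Cfd ratio of 3.62 turned to 0.935 without ENMO and was at most 5.001 (without EAEcoP) when 1 array was left out. The C2 ratio of all T to all non-T stayed below 1 in all settings, from 0.377 to 0.774, though its arrays overlapped without normalization between arrays. Opposite antibody ratios past 2-fold came to 2 genes without normalization between arrays (Cfd and Serping1), and normexp had Serping1 in place of Cfd. limma called 0 targets, or 0 to 185 for all T against all non-T when 1 array was left out, with 185 without ENMO and 3 without EAEcoI, and none of the 9 genes was among these. For ENMO against EAE and NMO-IgG against control IgG this says nothing about the 9 genes, since those fits called none of the known changes used to check them. The fit of all T against all non-T called 0 of 50 known changes of log2 size 1 and 4 of 50 of size 2. Of 195 other ratios of single genes, 174 moved by less than the SD of 0.769 (log2) between spots, 20 moved by more and 1 reversed. The 20 fell on 13 of 15 results. Settings of probe choice cannot change a gene with 1 probe, so some of the 174 could not move. Signals near background (C3, Cd59, the dimmer C1s probe) gave bounds or no ratio.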
